A study of Mus musculus with 2 samples.

Results

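The miR-181 family of the mouse is made from 6 microRNA genes, Mir181a-1, Mir181a-2, Mir181b-1, Mir181b-2, Mir181c and Mir181d, which were found by their names in the M21 annotation among 2202 counted microRNA genes. All 6 were measured in the hearts of female B6CASTF1/J mice, an F1 hybrid of C57BL/6 and CAST strains, taken 4 days after birth. There were 2 libraries of small RNA below 30 nt and a single group. In the labels, animal number 3 gave replicate 1 and animal number 4 gave replicate 2, with a shared donor entry, and each heart has its technical replicate 1 here. With no second condition, the data show how abundant each member was and how far the hearts differed.

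MicroRNAs are cut from a hairpin in a longer transcript, and either arm of the hairpin (5p or 3p) can be kept as the mature strand that guides repression of messenger RNAs. Bases 2 to 8, the seed, do most of the target recognition, so microRNAs that share a seed can act on overlapping targets. The miR-181 family is best known from lymphocytes, where miR-181a tunes T cell receptor signalling, and it is also found in other tissues; in rat heart, miR-181c has been described in mitochondria.

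The mature sequences show which members the counts can tell apart. They are those of RefSeq (GRCm38.p6), written 5′ to 3′ with the seed in capitals. The 5p arms, of which there are 4 distinct ones for 6 genes, are
miR-181a-5p (Mir181a-1 and Mir181a-2): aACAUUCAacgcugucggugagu
miR-181b-5p (Mir181b-1 and Mir181b-2): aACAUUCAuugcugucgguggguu
miR-181c-5p (Mir181c): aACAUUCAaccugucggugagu
miR-181d-5p (Mir181d): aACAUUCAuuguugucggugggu

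The 3p arms, with 6 distinct sequences, are
miR-181a-1-3p (Mir181a-1): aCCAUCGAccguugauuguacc
miR-181a-2-3p (Mir181a-2): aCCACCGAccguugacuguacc
miR-181b-1-3p (Mir181b-1): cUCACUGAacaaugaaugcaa
miR-181b-2-3p (Mir181b-2): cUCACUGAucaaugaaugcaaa
miR-181c-3p (Mir181c): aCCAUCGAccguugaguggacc
miR-181d-3p (Mir181d): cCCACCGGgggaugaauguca

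All 4 of the 5p sequences carry the same seed, which was found in 0 genes outside the family in the RefSeq table. Counting positions from 1 at the 5′ end, miR-181b-5p and miR-181d-5p differ over 23 bases at 1 position, C12U. From miR-181a-5p to miR-181b-5p there are 3 substitutions over 23 bases, A9U, C10U and A21G. miR-181c-5p is 1 edit away from miR-181a-5p, being 1 base shorter. By the 5p arm the genes thus form an a and c type and a b and d type, and each genomic cluster holds 1 gene of each type. The 3p seeds group the genes otherwise: Mir181a-1 shares its 3p seed with Mir181c, Mir181b-1 shares its own with Mir181b-2, and Mir181a-2 and Mir181d each have a 3p seed of their own within the family.

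Because miR-181a-5p and miR-181b-5p are each identical in a pair of genes, reads of exactly these sequences match more than 1 place; multi-mapped reads (39.6% of reads in replicate 1 and 43.2% in replicate 2) are in no gene's count. Among the M21 hairpins, a read that starts at the first base of miR-181a-5p matches a single gene only from 28 nt on, where the genes differ by A28G from Mir181a-1 to Mir181a-2. For miR-181b-5p this length is 25 nt, 1 base past the annotated end, where the genes differ by G25U from Mir181b-1 to Mir181b-2. The 3p arms of all 6 genes are told apart within 16 nt of their first base, miR-181c-5p within 11 nt and miR-181d-5p within 12 nt. Reads of exactly the annotated miR-181a-5p or miR-181b-5p sequence cannot be assigned to 1 gene, so the counts of Mir181a-1, Mir181a-2, Mir181b-1 and Mir181b-2 do not measure how much miR-181a or miR-181b the hearts held. Counts are per hairpin gene and do not separate the arms.

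The genes lie in 3 clusters of 2 (mm10). On the plus strand of chromosome 1, Mir181a-1 (ENSMUSG00000065565.1, 137966455 to 137966541) and Mir181b-1 (ENSMUSG00000065458.1, 137966639 to 137966718) are 97 bp apart in an intron of the processed transcript Gm4258, and both overlap an exon of the lincRNA A430106G13Rik on the same strand. On the plus strand of chromosome 2, Mir181a-2 (ENSMUSG00000065423.1, 38852735 to 38852810) and Mir181b-2 (ENSMUSG00000065578.1, 38853830 to 38853918) are 1019 bp apart within an intron of Nr6a1, the gene of an orphan nuclear receptor that is read from the opposite strand, where Mir181b-2 also overlaps an exon of the transcript Gm44144. On the minus strand of chromosome 8, Mir181c (ENSMUSG00000065483.2, 84178873 to 84178961) and Mir181d (ENSMUSG00000076338.1, 84178716 to 84178787) are 85 bp apart within an intron of Nanos3, a germ cell gene read from the same strand. No member had a count on the opposite strand (0 in both libraries together).

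**Figure D1:**
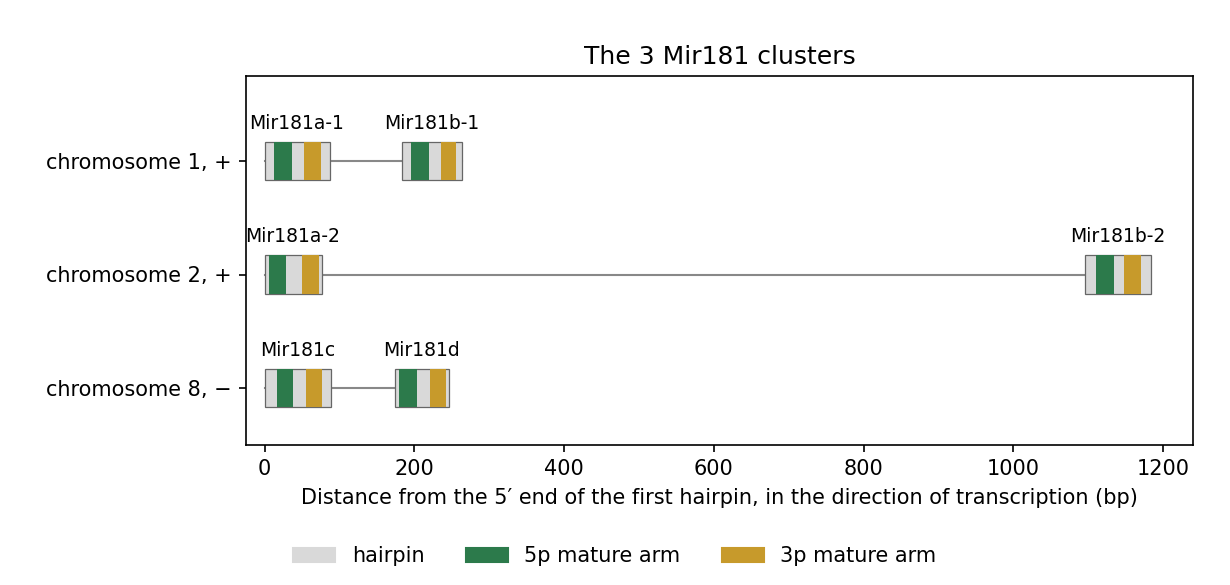
Map of the 3 clusters to scale, in bp from the 5′ end of the first hairpin in the direction of transcription, with hairpins in grey and the annotated 5p and 3p mature arms in green and yellow. The hairpins are 97 bp apart on chromosome 1, 1019 bp on chromosome 2 and 85 bp on chromosome 8, and each pair holds an a or c gene first and a b or d gene second.

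Replicate 1 held 6417302 own-strand counts and replicate 2 held 5662222, and 373 of 2202 genes were detected, with 10 counts or more in each library. The cardiac muscle microRNA genes Mir208a, Mir208b and Mir499, which lie inside myosin genes, held 2.10% and 1.91% of the counts in replicates 1 and 2. The endothelial gene Mir126a held 5.18% and 7.30%, and the vascular smooth muscle genes Mir143 and Mir145a held 4.71% and 6.03%. Sums of blood markers were 0.0788% and 0.0300% for the 3 erythroid genes and 0.482% and 0.488% for the 6 leukocyte genes. The neuronal list of 7 genes held 0.00165% and 0.000406%, with 4 genes at 0 in both libraries and Mir137 as its detected gene, at 103 and 22 counts. The Mir9 copies of that list have identical mature sequences, so reads that match several of them are not in their counts. The same would hold for reads that match several of the Mir124a copies, so counts of 0 there do not show absence. The epithelial list of 6 genes held 0.0509% and 0.0443%, and the liver gene Mir122 held 0.0105% and 0.00862%. The labels name different animals, but nothing else about how separately the hearts were handled.

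All 6 members were detected, and together they held 35436 counts in replicate 1 and 24279 in replicate 2. Their share of the library was 0.552% in replicate 1, with Clopper-Pearson 95% limits of 0.546% and 0.558%. In replicate 2 it was 0.429%, with limits of 0.423% and 0.434%, and the mean share was 0.490% ± 0.0873 (SD, n = 2). These are shares of the reads counted for microRNA genes. With multi-mapped reads added to the total but not to the family's counts, the mean was 0.252%. The median over the 6 members was 629 CPM, counts scaled to the total of the library, against 75.2 CPM over the detected genes. No member lay near this median, which falls between the mean CPM of Mir181a-1 (225) and Mir181c (1032.5).

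Mir181d was the highest member. It had 17880 counts (2786 CPM) in replicate 1 and 10899 counts (1925 CPM) in replicate 2, a mean of 2356 ± 609 CPM (SD, n = 2), and stood at rank 48 and rank 57 among all genes. Both of its values lay above every value of the other members.

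Mir181c, its cluster partner, had 6735 counts (1049.5 CPM) in replicate 1 and 5750 counts (1015.5 CPM) in replicate 2, a mean of 1032.5 ± 24.04 CPM, at ranks 75 and 72. Mir181b-2 had 8798 counts (1371 CPM) in replicate 1 and 5440 counts (961 CPM) in replicate 2, a mean of 1166 ± 290.1 CPM, at ranks 65 and 75. These genes changed places between the hearts, with Mir181b-2 above Mir181c in replicate 1 and below it in replicate 2, so their order is not set by these data. Mir181c and Mir181d have mature arms of their own, which the count of Mir181b-2 does not.

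Mir181a-1 had 1328 counts (207 CPM) in replicate 1 and 1375 counts (243 CPM) in replicate 2, a mean of 225 ± 25.4 CPM, at ranks 141 and 127. Mir181a-2 had 632 counts (98.5 CPM) in replicate 1 and 780 counts (138 CPM) in replicate 2, a mean of 118 ± 27.8 CPM, at ranks 173 and 152. Their values did not overlap, and both genes lay below Mir181b-2 and Mir181c in each library.

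Mir181b-1 was the lowest member, with 63 counts (9.82 CPM) in replicate 1 and 35 counts (6.18 CPM) in replicate 2, a mean of 8.00 ± 2.57 CPM, at ranks 292 and 300. It lay below the median of detected genes in both libraries, and the other 5 members lay above it.

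**Figure D2:**
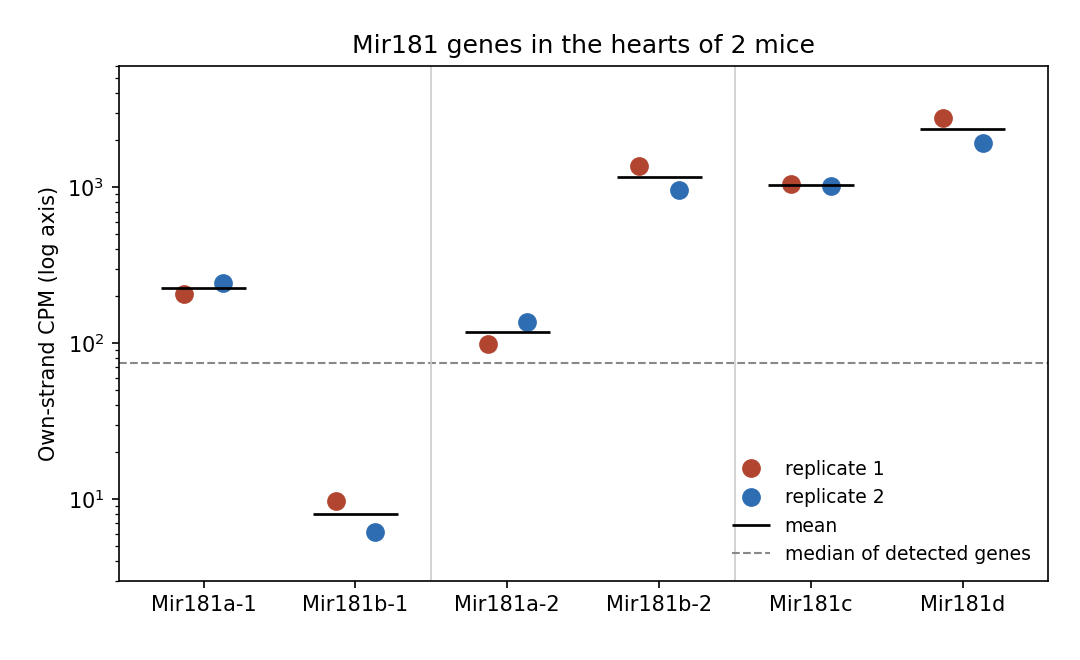
Own-strand CPM (log axis) of the 6 genes in replicate 1 (red) and replicate 2 (blue), grouped by cluster, with the mean as a black line and the median of the 373 detected genes dashed at 75.2 CPM. Mir181d lies highest at 2786 and 1925 CPM, and Mir181b-1 lies lowest at 9.82 and 6.18 CPM.

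The clusters contributed unequally to the family's counts. Mir181c and Mir181d on chromosome 8 held 69.5% of them in replicate 1 (95% limits 69.0 and 69.9) and 68.6% in replicate 2 (68.0 and 69.2), or on average 69.0% ± 0.629 (SD, n = 2). Mir181a-2 and Mir181b-2 on chromosome 2 held 26.6% in replicate 1 and 25.6% in replicate 2, and Mir181a-1 and Mir181b-1 on chromosome 1 held 3.93% in replicate 1 and 5.81% in replicate 2. The order of the clusters was the same in both hearts, but it covers only reads that match a single place. In a two-sided Fisher's exact test, with p adjusted over 8 shares, the chromosome 1 share differed between replicate 1 and replicate 2 by −1.88 percentage points (adjusted p = 8.72e-26). The chromosome 2 share differed by 0.993 points (exact adjusted p = 0.0104) and the chromosome 8 share by 0.890 points (exact adjusted p = 0.0240). These tests compare the libraries and cover counting error only, whereas over the detected genes edgeR estimated a coefficient of variation of 0.338 between the hearts.

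Within the clusters, the leading gene was not of the same type. On chromosome 1 the a gene led: Mir181a-1 outnumbered Mir181b-1 21.1-fold in replicate 1 and 39.3-fold in replicate 2. On chromosome 2 the b gene led: Mir181b-2 outnumbered Mir181a-2 13.9-fold in replicate 1 and 6.97-fold in replicate 2. On chromosome 8 Mir181d outnumbered Mir181c 2.65-fold in replicate 1 and 1.90-fold in replicate 2. Only the chromosome 8 ratio compares genes whose mature arms are all distinct.

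In all 3 clusters the a or c gene made up less of the cluster in replicate 1 than in replicate 2. The share of Mir181a-1 was 95.5% in replicate 1 (95% interval 94.2 to 96.5) and 97.5% in replicate 2 (96.6 to 98.3; Fisher's exact test, adjusted p = 0.00759). The share of Mir181a-2 was 6.70% in replicate 1 (6.21 to 7.23) and 12.5% in replicate 2 (11.7 to 13.4; exact adjusted p = 2.75e-34). The share of Mir181c was 27.4% in replicate 1 (26.8 to 27.9) and 34.5% in replicate 2 (33.8 to 35.3; exact adjusted p = 2.30e-53). Summed over the clusters, a grouping chosen after the values were seen and not tested, the a and c genes held 24.5% of the family's counts in replicate 1 and 32.6% in replicate 2. Since these are shares within the family, no scaling of the libraries bears on them. The grouping is by the 5p arm, but reads of exactly miR-181a-5p or miR-181b-5p are in no gene's count. Markers of several cell types also differed between the hearts. In an exact binomial test, which covers counting error only, 11.2% of 491 tested genes were called (adjusted p under 0.05, fold over 2). EdgeR's exact test, with a dispersion from both libraries, called 0.815%. Among the marker genes called with a fold over 2, erythroid Mir451a (log2 ratio 1.67) and Mir144 (1.59), leukocyte Mir142 (1.15) and neuronal Mir137 (1.72) were higher in replicate 1. Cardiac Mir499 (−1.80), leukocyte Mir223 (−1.14), and epithelial Mir205 (−4.73) and Mir200b (−1.42) were higher in replicate 2. With total counts, the ratio of Mir223 was inside 2-fold (−0.84). Genes of one list did not all go the same way. Cardiac Mir208a (0.55) and Mir208b (0.10) and epithelial Mir200c (0.26) and Mir141 (0.35) had ratios above 0. So did leukocyte Mir155 (0.50) and erythroid Mir486 (0.48). Epithelial Mir429 (−0.73) and Mir200a (−0.33) had ratios below 0. Leukocyte Mir146 (−0.79), Mir342 (−0.44) and Mir150 (−0.33) did too. Endothelial Mir126a (−0.80) and vascular smooth muscle Mir143 (−0.67) and Mir145a (−0.55) were also below 0, inside 2-fold. The part of these cell types in the difference was not tested. In whole hearts, fewer cells of a type and less RNA per cell cannot be told apart.

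**Figure D3:**
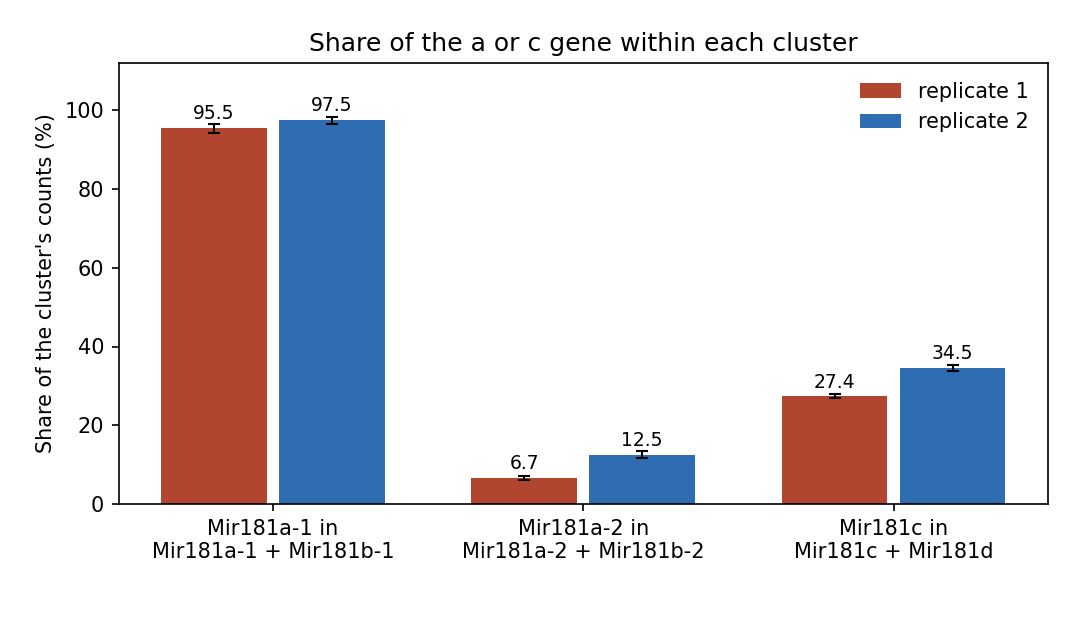
Share of the a or c gene in the counts of its cluster (percent) in replicate 1 (red) and replicate 2 (blue), with exact 95% Clopper-Pearson intervals that cover counting error only. In each cluster the red bar is the lower one: 95.5 against 97.5, 6.7 against 12.5, and 27.4 against 34.5.

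Between the copies of the same mature microRNA, Mir181b-2 held nearly all counts of reads that match a single place. It outnumbered Mir181b-1 139.7-fold in replicate 1 and 155-fold in replicate 2, and the share of Mir181b-1, 0.711% in replicate 1 (95% interval 0.547 to 0.909) and 0.639% in replicate 2 (0.446 to 0.888), did not differ detectably at this depth (Fisher's exact test, adjusted p = 0.677). A 25 nt read that starts at the first base of miR-181b-5p is assigned by base 25 alone, U in Mir181b-2 and G in Mir181b-1. Bases added to the ends of reads were not examined. Mir181a-1 outnumbered Mir181a-2 2.10-fold in replicate 1 and 1.76-fold in replicate 2, and its share was 67.8% in replicate 1 and 63.8% in replicate 2 (exact adjusted p = 0.0104).

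Other genes with an identical mature sequence give the scale for this. Only the 1018 of 2202 genes matched by name to the RefSeq table were compared, so other pairs can be missing. Among them were 24 such pairs with at least 10 counts in each library. The leading gene's share of the pair's mean CPM ran from 53.0% to all of it, with a median of 78.8%. By this share the miR-181b pair stood at place 3 of these 24 and the miR-181a pair at place 17. The miR-181b pair was 1 of 3 in which the leading gene held over 99% of the mean CPM. By summed CPM the 5 largest groups were those of let-7f-5p (4571 CPM, led by Mirlet7f-2), miR-92a-3p (2943 CPM, led by Mir92-1), miR-181b-5p (1174 CPM), let-7a-1-3p (819.9 CPM) and let-7c-5p (729 CPM), the last 2 led by Mirlet7c-2. These CPM are sums over whole hairpin genes, both arms together, and the last 2 groups both include the counts of Mirlet7c-2. The miR-181a pair held 343 CPM. Counts of all these pairs leave out reads that match both copies.

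**Figure D4:**
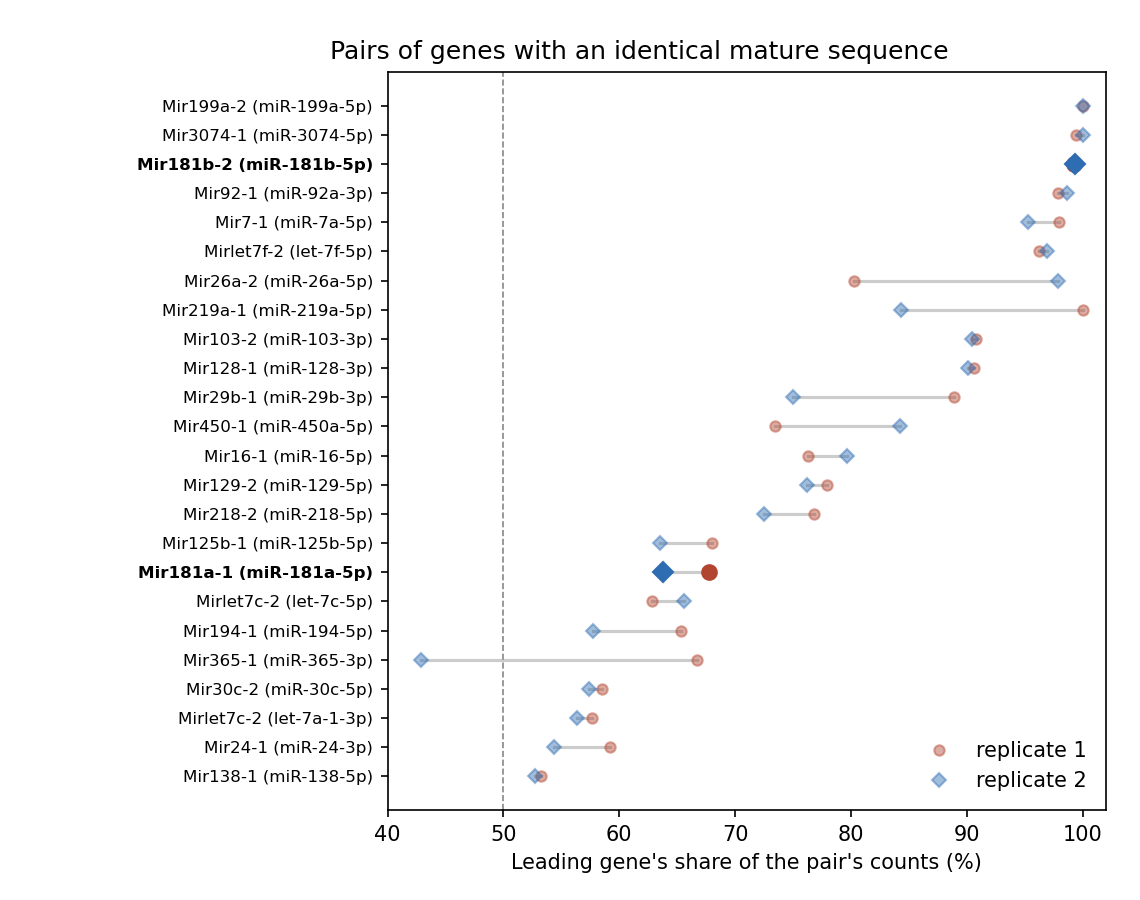
Share of the leading gene (percent) in the counts of each of 24 pairs of genes with an identical mature sequence, in replicate 1 (circles) and replicate 2 (diamonds), with the miR-181 pairs in bold. Only genes matched by name to the RefSeq table were compared. Mir181b-2 lies at 99.3% and 99.4%, and Mir181a-1 at 67.8% and 63.8%.

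Compared gene by gene, no member differed by over 2-fold between the hearts. Of 491 genes tested with the exact binomial test on TMM-scaled totals, 11.2% were called, which took both a 2-fold difference and an adjusted p under 0.05, and of the 6 members 0 were called. A count of 0 among 6 is near that background. The 55 genes called were 19 higher in replicate 1 (3.87% of those tested) and 36 higher in replicate 2 (7.33%), or 39 and 22 with scaling by total counts. At an unadjusted p under 0.05 in the same test, with no limit on the fold, 5 of 6 members and 50.1% of all genes tested passed. EdgeR's exact test with a dispersion from both libraries called 0.815% of the genes tested and 0 members. At an unadjusted p under 0.05 in edgeR's test, 5.5% of the genes and 0 members passed.

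On the log2 scale of replicate 1 over replicate 2, after TMM scaling, the ratios were −0.53 for Mir181a-1 (counting SE 0.06), −0.79 for Mir181a-2 (0.08) and −0.26 for Mir181c (0.03). They were 0.36 for Mir181b-1 (counting SE 0.30), 0.21 for Mir181b-2 (0.02) and 0.23 for Mir181d (0.02). The a and c genes thus had values below 0 and the b and d genes values above 0. This grouping is by the 5p arm, while the counts do not separate the arms. TMM scaling lowers each ratio by 0.30 against total counts, and with total counts Mir181c moved to 0.05 while the other 5 signs held. The adjusted p was 0.398 for Mir181b-1 in the exact binomial test. The median size of the log2 ratio was 0.31 over the members, against 0.39 over the 373 detected genes.

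**Figure D5:**
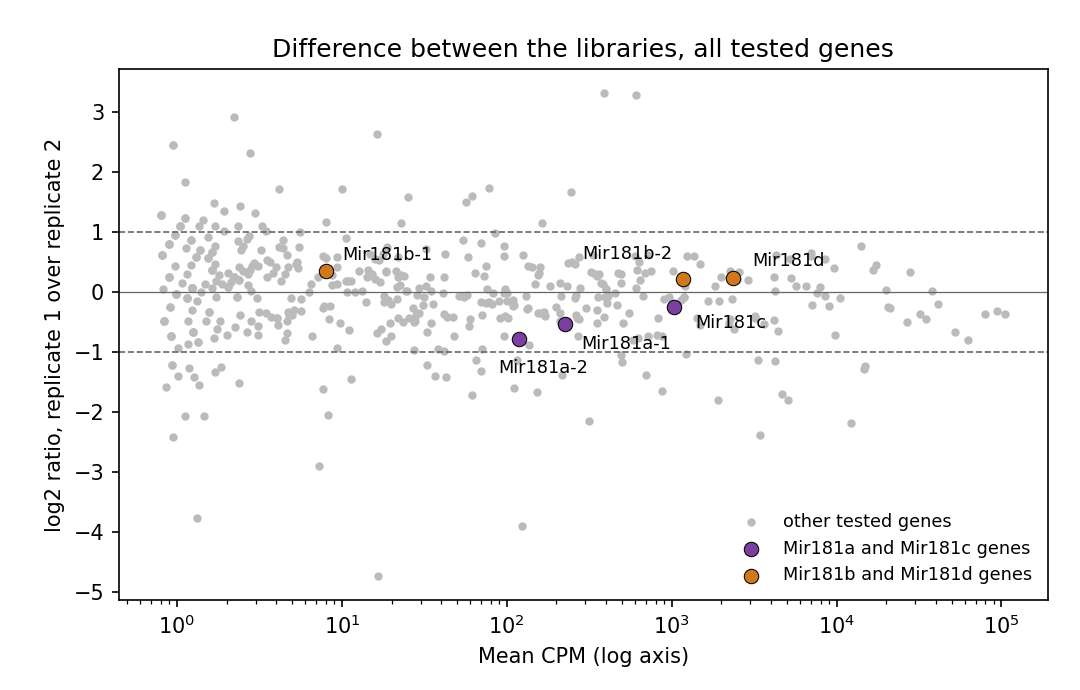
Log2 ratio of replicate 1 over replicate 2 after TMM scaling against mean CPM (log axis) for the 491 tested genes, with the Mir181a and Mir181c genes in purple, the Mir181b and Mir181d genes in orange, and dashed lines at a 2-fold difference. All 6 members lie between the dashed lines, the purple points below 0 (−0.26 to −0.79) and the orange points above it (0.21 to 0.36); with total counts Mir181c lies at 0.05.

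The genes closest to each member in level over the 2 libraries were found by distance in log2 CPM, which describes level and nothing else. Mir34a lay closest to Mir181c, at a distance of 0.02, with 6769 counts in replicate 1 and 5673 in replicate 2, followed by Mir328 (0.19). Mir361 (0.11) and Mir483 (0.15) were closest to Mir181d, and Mir501 (0.11) and Mir382 (0.22) to Mir181b-2. Mir181a-1 was closest to Mir125b-2 (0.14) and Mir376c (0.20), Mir181a-2 to Mir223 (0.27) and Mir16-2 (0.30), and Mir181b-1 to Mir3107 (0.08) and Mir129-2 (0.16).

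Of 18 other microRNA genes known from lymphocyte development and activation, 15 were detected, against 373 of all 2202 genes. Over detected genes the median was 579 CPM for this list, 629 CPM for the Mir181 genes and 75.2 CPM for all genes. Over all 18 listed genes, detected or not, it was 347 CPM. Mir17, Mir21a, Mir23a and Mir92-1 (4 of 18) lay above Mir181d in both libraries, and Mir146b, Mir19a and Mir19b-1 (3 of 18) lay below Mir181b-1 in both. Mir92-1, Mir19b-1, Mir181a-1 and Mir181b-1 each share a mature sequence with another gene, and their counts leave out reads that match both. Mir150, a gene of mature lymphocytes, had 168 CPM in replicate 1 and 171 CPM in replicate 2, below Mir181a-1 and above Mir181a-2 in both. Mir155, induced in activated lymphocytes, had 810.3 CPM in replicate 1 and 465 CPM in replicate 2, below Mir181c and above Mir181a-1 in both. In the exact binomial test with a fold over 2, 4 of 17 tested genes of this list were called, against the 11.2% of all tested genes. Mir142, a gene expressed throughout the blood lineages, was higher in replicate 1 (log2 ratio 1.15), while Mir18 of the miR-17-92 cluster (−1.05), Mir21a, a gene of many tissues and not of lymphocytes alone (−2.18), and Mir223 of myeloid cells (−1.14) were higher in replicate 2. Mir18 (−0.75) and Mir223 (−0.84) were inside 2-fold with total counts. Many genes of this list are also made by heart cells, and which cells held the Mir181 reads was not tested.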

How the data were processed

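The libraries hold small RNA of female mouse hearts, 1 library per heart, from RNA below 30 nt per the labels. The deposited values are raw read counts per microRNA gene, made by the authors against the mm10 build with GENCODE M21 per the labels and deposited descriptions. The aligner or counting program is not given in the sources used here. There are 3 count columns (strands together, own strand, opposite strand), an order inferred from the 4 summary entries at the top. Own-strand counts were used. The summary entries stayed out of library totals: multi-mapped reads made up 39.6% of 14450527 reads in replicate 1 and 43.2% of 13495259 reads in replicate 2, and belong to no gene's count, as do unmapped reads (11.9% and 11.4%) and reads outside microRNA genes (4.12% and 3.38%).

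CPM values are counts scaled to the own-strand total of a library. They were not divided by hairpin length, since each read is a short RNA counted once. A gene was called detected at 10 counts or more in each library. Genes with a summed count of at least 10 were tested between libraries with a two-sided exact binomial test on TMM-scaled totals, with factors of 1.11 and 0.900 from edgeR 4.0.16 (R 4.3.3). P-values were adjusted over 491 genes by Benjamini-Hochberg. A call needed a fold above 2, computed with a prior count of 0.5, besides an adjusted p below 0.05. With 1 group of 2 libraries, no test between conditions was possible. Shares carry exact Clopper-Pearson 95% intervals, and 5 pairs and 3 clusters were compared between libraries with Fisher's exact test, adjusted over all 8. These tests, intervals and the floor of 3 counts (0.467 and 0.530 CPM) cover counting error only, and reads are not independent molecules.

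Mature sequences came from RefSeq (GRCm38.p6, the mm10 assembly), which held entries for all 6 members, and hairpins for matching came from M21. Only hairpins were searched for shared sequence, not the genome, and variants of the CAST parent were not examined. The genes named beside the members were the 2 detected genes closest in log2 CPM over both libraries. The 5 groups with an identical mature sequence and the largest summed CPM, among the 1018 genes matched by name to RefSeq, were also named. Alternatives were other scalings (DESeq2 1.42.0 size factors, total counts), the count column without strand, another prior count, other minimum counts, multi-mapped reads in the total, edgeR's exact test and each library alone. The members and lists were chosen with earlier results of these data known. The exact binomial test was run on simulated counts that varied by counting error only. This cannot show its error rate for hearts that differ beyond counting error. Python 3.11.15, scipy 1.17.1, pandas 2.3.3, numpy 2.4.6 and matplotlib 3.10.9 were used.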

Additional observations from a re-analysis of the deposited data

How the results depend on the processing

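Of 96 alternative values, 83 kept their direction and their side of the threshold or moved by less than the spread between the libraries. A further 12 moved more and 1 changed sign. Some of the 83 could not have come out otherwise, so the tally does not measure robustness. A value from 1 library alone always lies within the SD of both. Shares within pairs and clusters could not change with the counts without strand. The sign change was that of Mir181c, with a log2 ratio of 0.047 under scaling by total counts. The family's share of counts was 0.612% with the counts without strand, whose totals are smaller. It was 0.252% with multi-mapped reads added to the total but not to the family's counts. EdgeR's exact test called 4 of 491 genes, against 55 in the exact binomial test, and 0 members in either. The remaining 9 values that moved were the members' CPM under the same changes of total. The shares within pairs and clusters were the same with the counts without strand, since all 6 members had equal counts in both columns. With 1 library at a time, the family's share ran from 0.429% to 0.552%. No paired analysis was possible because the series has 1 group. Reads matching several places are missing from the Mir181a and Mir181b genes, and the low count of Mir181b-1 limits its ratio.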
